A study of Mus musculus with 12 samples.

Results

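The probe sets described here are the brightest features of a small RNA array whose values belong to no other probe set. They were chosen from the deposited table by a mean log2 intensity of at least 8 over the 12 arrays and by a set of 12 values that no other probe set shares. Of the 36249 probe sets in the table, 180 met both conditions, and all 180 were among the 18125 that were tested. The choice used the level over all arrays, so the levels below are a description. It used no difference between treatments or days. The values near the minimum lay close together. The 2 members just inside it averaged 8.01 and 8.01, and the 2 unique probe sets just outside averaged 7.96 and 7.95.

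Spleens of female mice were compared after intraperitoneal ovalbumin (OVA, a protein of egg white that serves as a model allergen) or of normal saline. Mice were 8 weeks old at the start and received 3 injections, on days 1, 3 and 5, and the daily dose of OVA was 0.05 mg. Spleens were taken on day 14 or day 28, which gave 4 OVA and 2 saline arrays at each day. The strain is not given in the sources used here. OVA animals were chosen for a high OVA-specific IgE level in blood, so they do not stand for all sensitised mice. Arrays are numbered within a group without tying each to its own mouse, so the p-values measure the spread between these arrays, which may be technical.

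Small RNAs on arrays of this kind include microRNAs, which guide Argonaute proteins to messenger RNAs and lower their translation and stability. The spleen holds B and T lymphocytes in its white pulp and red cells and macrophages in its red pulp, and each of these cell types carries its own set of abundant microRNAs. Sensitisation with a protein allergen leads to IgE through helper T cells and B cells. The table pairs its numeric identifiers with no RNA name, species or sequence, and the RefSeq microRNA sequences were therefore not joined to them. Members are therefore called by their rank of mean level (rank 1 is the brightest). The identifiers of 2 members that were higher and 2 that were lower in OVA are printed. No sequence is shown, and the tissue could not be checked against its marker microRNAs.

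The members did not form 1 kind. The last 59 identifiers of the table follow 104 unlisted numbers, and 37 of the 180 members lie in this terminal run. The first 21 probe sets of the run repeat a series of 7 levels 3 times. In the first series the mean log2 intensities were 7.60, 7.94, 8.79, 10.07, 10.63, 11.96 and 11.53. The other series gave the same level at each step, within 0.125 log2 units at steps 2 to 7 and within 0.53 at the first step. Next came 6 probe sets at 12.97 to 13.12, and the last 10 of the run stood at 11.43 to 11.61. A further 17 probe sets of the run lay under a mean log2 of 1. The lowest-ranked member and the brightest unique probe set outside the minimum both belong to the repeated series. The files do not say what the run detects. Whether its probe sets measure spleen RNA or serve as controls of the array was not tested, and the main counts of members are also given separately for the run.

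**Figure D1:**
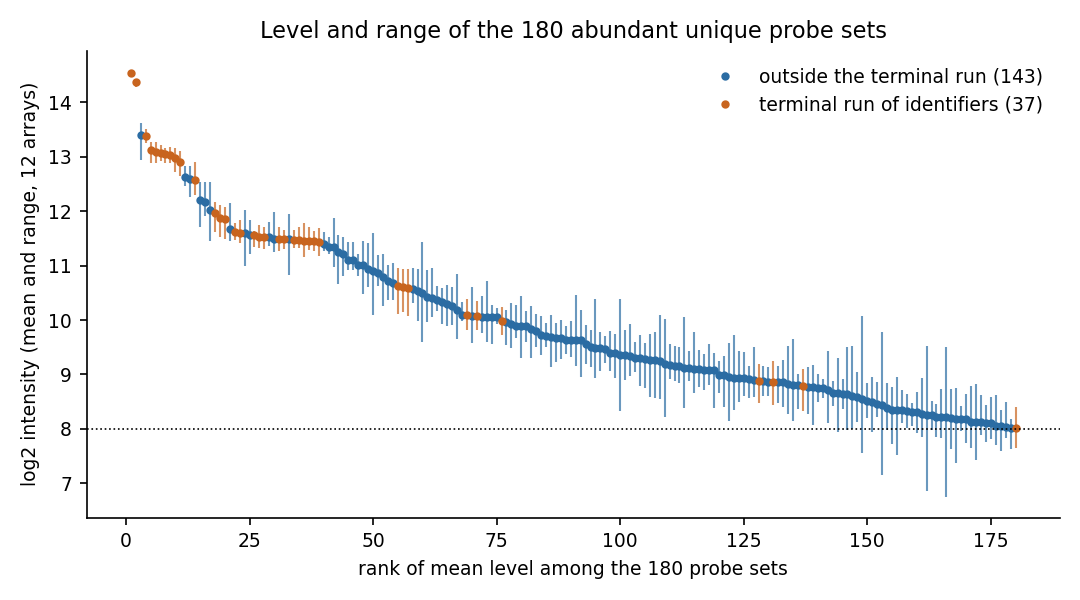
Mean log2 intensity (points) and the range over 12 arrays (vertical lines) of the 180 members, ordered by mean level. Members of the terminal run (orange) hold 10 of the first 11 ranks and have short ranges, while the longest ranges belong to members outside the run near the minimum of 8 (dotted line).

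Levels fell off quickly from the top. Of the 180 members, 61 averaged between 8 and 9, 44 between 9 and 10, 27 between 10 and 11 and 31 between 11 and 12. There were 8 between 12 and 13, 7 between 13 and 14 and 2 above 14. The terminal run supplied both of the last 2 and 6 of the 7 below them. The brightest member stood at 14.53 and lay between 14.49 and 14.56 on every array, at the top of the table's range (14.56). The second stood at 14.37, with all arrays between 14.27 and 14.41. The fourth, also of the run, averaged 13.39. These 3 hardly varied, and no comparison called them.

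The brightest member outside the run, of rank 3, averaged 13.39. It measured 13.57, 13.52, 13.63 and 13.38 in OVA day 14, and 13.38 and 13.26 in saline day 14. At day 28 it measured 13.35, 13.44, 12.95 and 13.00 in OVA and 13.61 and 13.58 in saline. The saline day 28 arrays lay above all OVA day 28 arrays, and OVA replicates 3 and 4 were the lowest of the 12. The log2 fold change at day 28 was -0.41 (SE 0.16, limma adjusted p = 0.14), short of the threshold of 0.05.

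Spread within groups was smaller in the run, whose members were also brighter on the whole, and the sets were not matched for level. The pooled within-group SD had a median of 0.093 log2 units among the 37 members of the run and 0.18 among the 143 outside it. It was under 0.2 for all 37 and for 84 of the 143. Among all 998 distinct profiles with a mean log2 of at least 4 (called bright below), the median was 0.23. The largest SD among the members was 0.56, at rank 149, and the smallest was 0.019, at rank 1. Rank 149 measured 9.16, 10.08, 8.16 and 8.65 in OVA day 14, and its lowest value on any array was 7.56. Its day 28 difference of -0.98 (SE 0.40) was not called (limma adjusted p = 0.17).

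The median level of the members was steady across arrays, while their share of the array's summed intensity was not. Outside the run, the median log2 intensity was 9.26 to 9.42 on all 12 arrays, and in the run it was 11.39 to 11.71. The 143 members outside the run summed to 145208 to 162961 intensity units on the OVA day 28 arrays and to 171971 and 179140 on the saline day 28 arrays. Their share of the whole array's summed intensity was 7.76% to 9.49% in OVA and 11.6% and 12.1% in saline at day 28. At day 14 it was 9.52% to 11.1% in OVA and 9.77% and 9.84% in saline. The mean intensity over all probe sets moved the other way. It was 47.4 to 51.7 in OVA day 28, 41.0 and 40.9 in saline day 28, and 40.6 to 44.8 at day 14. The part of this array brightness in the day 28 results below was not tested.

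The first comparison asked which of the abundant features differed between OVA and saline spleens at day 14. None of the 180 passed limma's adjusted threshold, and the smallest adjusted p was 0.59. Among all tested probe sets 0.0552% were called, and none of the bright distinct profiles. At an unadjusted p under 0.05 there were 5 members, all lower in OVA. That cut held 1346 of the 18125 tested and 111 of the 998 bright distinct profiles. Members had a median log2 fold change of 0.0046, and all tested probe sets one of 0.012. The arms did not overlap for 35 members (19.4%), against 17.3% of all tested and 22.8% of the bright distinct profiles. These were 22 of the 143 members outside the run (15.4%) and 13 of the 37 in it (35.1%). The widest differences were 0.67 (SE 0.33, limma adjusted p = 0.67) for 20523392, of rank 162, and -0.52 (SE 0.27, limma adjusted p = 0.70) for rank 50. The second in each direction were 0.66 (SE 0.35, limma adjusted p = 0.70) for 20506526, of rank 166, and -0.43 (SE 0.17, limma adjusted p = 0.59) for 20504878, of rank 122. In bulk spleen, fewer cells of a type and less RNA per cell cannot be told apart, here and in the comparisons that follow.

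At day 28 the called members divided almost evenly between higher and lower in OVA, while more members had a negative than a positive estimate (116 and 64). Negative and positive estimates numbered 8242 and 9883 among all tested probe sets, and 507 and 491 among the bright distinct profiles. Of the 180 members, 25 were higher and 24 lower in OVA spleens by limma's adjusted p, 27.2% in all. Among all tested probe sets 11.6% were called (9.68% higher and 1.91% lower). With copies of the same values counted once, the 11771 distinct profiles among them gave 5.51% (3.75% higher and 1.77% lower). Among the 998 bright distinct profiles 32.5% were called (21.5% higher and 10.9% lower). The share among the members lay between that of all tested probe sets and that of the bright distinct profiles. It is therefore not a result about the members. Outside the run 25 were higher and 21 lower of 143, and in the run 0 were higher and 3 lower of 37. Called members had a median log2 fold change of 0.81 among the higher and -0.70 among the lower. Called differences of at least 1 log2 unit were found for 6 higher and 7 lower members. They were found for 1040 higher and 175 lower of the 18125 tested, and for 115 and 46 of the 998 bright distinct profiles. The median over all 180 was -0.15, against 0.030 over all tested probe sets. The arms did not overlap for 118 members (65.6%), 44 of them higher and 74 lower in OVA, against 29.7% of all tested and 60.2% of the bright distinct profiles. Outside the run there was no overlap for 102 (71.3%), and in the run for 16 (43.2%). At an unadjusted p under 0.05, 36 members were higher and 58 lower. At that cut 2753 were higher and 1020 lower of the 18125 tested, and 295 and 221 of the 998 bright distinct profiles.

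The even division of calls depended on scaling between arrays. Quantile normalization of the tested probe sets called 11 higher and 58 lower. After subtraction of each array's median over the bright distinct profiles the counts were 19 and 39. Centring on the members called 26 and 18, and centring on the members of the run called 25 and 20. Over all tested probe sets the split moved too, from 1754 higher and 347 lower to 1092 and 671 after quantile normalization. The 3 centrings gave 1580 and 547, 1871 and 307, and 1764 and 312 there, in the order above. Among the bright distinct profiles, quantile normalization moved it from 215 and 109 to 124 and 243. Calls over all tested probe sets fell from 2101 to 1818 without replicate 3 of OVA day 28, and to 987 without its replicates 3 and 4. The count of members likewise rested on single arrays. It was 29 without replicate 3 of OVA day 28, and 12 when its replicates 3 and 4 were both removed. Leaving out either saline day 28 array lowered the calls among the members and over all tested probe sets. Such a fit leaves 1 array in that group.

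**Figure D2:**
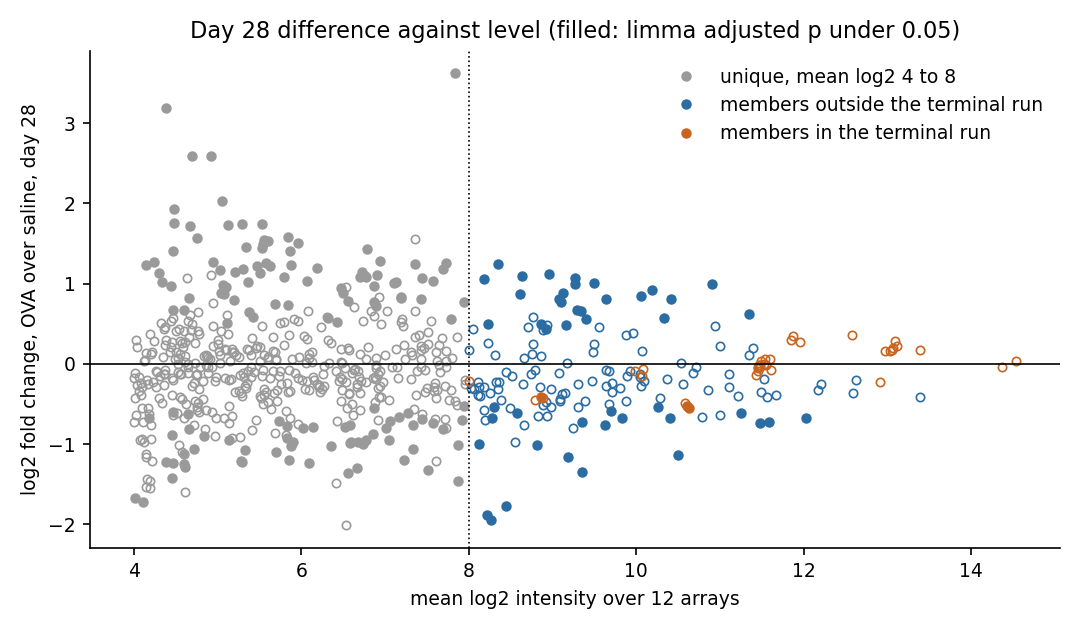
Log2 fold change of OVA over saline at day 28 against mean log2 intensity, for all unique probe sets with a mean of at least 4. Filled points passed limma's adjusted threshold; members outside the terminal run are blue, members in it orange, dimmer unique probe sets grey. Differences between -1.94 and 1.24 were measured among the members, and all 6 members above 12 outside the run lay below 0.

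Calls were found at most levels. Outside the run, 16 of 57 members with a mean between 8 and 9 were called (8 higher, 8 lower), as were 17 of 43 between 9 and 10 (11 and 6) and 12 of 37 between 10 and 12 (6 and 6). Of the 6 brightest, all were lower in OVA at day 28, by 0.21 to 0.68 log2 units, and 1 of them, of rank 17, passed the threshold. Unique probe sets with a mean of 4 to 8 gave 136 calls of 513, 79 higher and 57 lower. The 104 distinct profiles of at least 8 that several probe sets share gave 56 calls, 45 higher and 11 lower. Whether the members differ from either set was not tested.

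Among the higher members, 20523039 of rank 156 had the widest difference at day 28. It measured 8.74, 8.54, 8.93 and 8.95 in OVA day 28 and 7.52 and 7.58 in saline day 28. At day 14 it measured 8.14, 7.97, 8.30 and 8.52 in OVA and 8.55 and 8.48 in saline. The 2 saline day 28 arrays were the lowest of the 12, and every OVA day 28 array stood above the day 14 arrays of OVA. The day 28 difference was 2.36-fold (log2 fold change 1.24, SE 0.17, limma adjusted p = 0.00093), from 7.55 ± 0.04 (SD, n = 2) in saline to 8.79 ± 0.19 (SD, n = 4) in OVA.

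Next came 20504878, of rank 122. It measured 9.31, 9.13, 9.57 and 9.42 in OVA day 28 and 8.14 and 8.34 in saline day 28. At day 14 the values were 8.75, 8.54, 8.81 and 9.07 in OVA and 9.24 and 9.21 in saline. Saline day 28 was again the lowest group, and saline day 14 lay within the range of OVA day 28. The difference at day 28 was 2.17-fold (log2 fold change 1.12, SE 0.17, limma adjusted p = 0.0016).

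Among the lower members, 20523392 of rank 162 had the widest difference. In OVA day 28 it measured 7.95, 7.84, 6.86 and 6.92, and in saline day 28 it measured 9.51 and 9.16. In day 14 spleens it measured 9.13, 8.71, 8.81 and 8.17 with OVA and 8.17 and 7.89 with saline. The saline day 28 arrays were the highest of the 12, and OVA day 28 replicates 3 and 4 were the lowest. At day 28 it was 3.85-fold lower in OVA (log2 fold change -1.94, SE 0.33, limma adjusted p = 0.0026). Without OVA replicates 3 and 4 the log2 fold change was -1.44 and the limma adjusted p stayed under the threshold.

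A nearly identical course was shown by 20506526, of rank 166. It measured 7.99, 7.97, 6.76 and 6.93 in OVA day 28 and 9.50 and 9.09 in saline day 28, and 9.09, 8.55, 8.67 and 8.12 in OVA day 14 and 8.01 and 7.89 in saline day 14. It was 3.69-fold lower at day 28 (log2 fold change -1.88, SE 0.35, limma adjusted p = 0.0039). Its limma adjusted p rose to 0.063 when replicate 1 of saline day 28 was left out. Of all pairs of members, 20523392 and 20506526 were the most alike over the 12 arrays, with a Pearson r of 0.99 after each array's member median was removed. The member of rank 153 followed both, at r = 0.98 and 0.99, and was 3.41-fold lower at day 28 (limma adjusted p = 0.0035). These correlations describe 12 arrays that the members share.

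**Figure D3:**
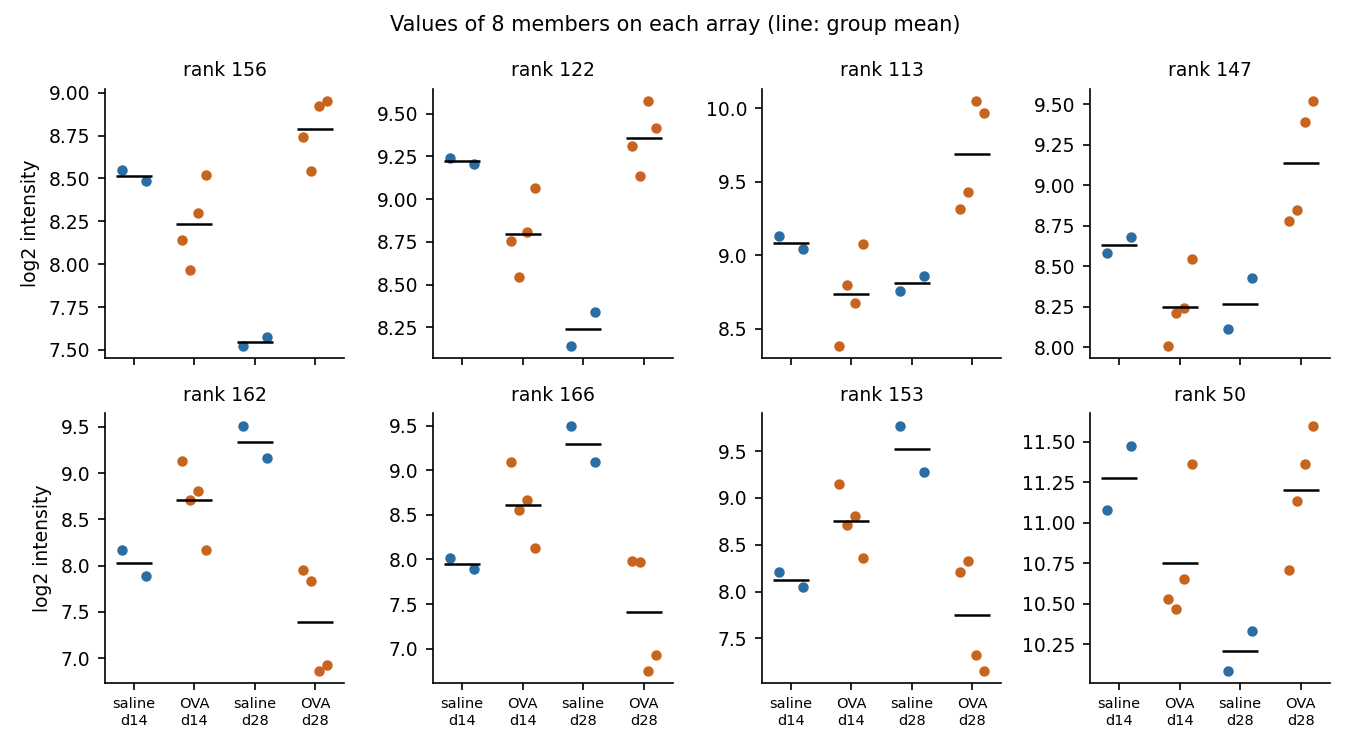
Log2 intensity of 8 members on each of the 12 arrays, with the group mean as a line; saline is blue and OVA orange, and vertical scales differ between panels. Ranks 156 and 122 are lowest in saline day 28, ranks 162, 166 and 153 have their highest mean there and their lowest values in OVA day 28 replicates 3 and 4.

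One order of the 4 group means was frequent among the members outside the run. For 74 of 180 (41.1%) saline day 28 was the highest group and OVA day 28 the lowest, and for 37 (20.6%) the reverse held. Outside the run the counts were 72 (50.3%) and 31 of 143, and in the run 2 and 6 of 37. Among the bright distinct profiles the shares were 23.7% and 26.2%, and among all tested probe sets 9.24% and 17.9%. All 4 other scalings kept the first order as the more frequent among the members, with 57 to 96 members against 13 to 37. The bright distinct profiles turned with scaling. The first order was the more frequent among them after quantile normalization (385 against 147 of 998) and after centring on the bright distinct profiles (282 against 219). Replicates 3 and 4 of OVA day 28 both lay outside the range of replicates 1 and 2 for 118 members, below them for 75 and above them for 43. The share was 65.6% of the members, 70.7% of the bright distinct profiles and 44.2% of all tested probe sets. It was 99 of 143 outside the run and 19 of 37 in it.

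The effect of OVA at day 28 was then set against its effect at day 14. For 30 members (16.7%) these effects differed by limma's adjusted p, with the day 28 effect higher for 18 and lower for 12. Among all tested probe sets 9.46% were called (7.71% higher, 1.75% lower), and among the bright distinct profiles 26.8% (18.1% higher, 8.62% lower). None of the 37 members of the run was called, and 6 of them had an unadjusted p under 0.05. That cut held 76 of the 180 members, 3515 of the 18125 tested and 503 of the 998 bright distinct profiles. All 18 were among the 25 members higher at day 28 and all 12 among the 24 lower. The 2 comparisons share the day 28 arrays. Subtracting the day 14 effect from the day 28 effect gave -2.62 ± 0.46 log2 units (SE) for 20523392 and -2.54 ± 0.50 (SE) for 20506526, with limma adjusted p-values of 0.0050 and 0.0077. It gave 1.55 ± 0.24 (SE) for 20504878 and 1.52 ± 0.24 (SE) for 20523039, with limma adjusted p-values of 0.0028 and 0.0035. The effects had opposite signs at the 2 days in 133 members (73.9%), against 76.8% of the bright distinct profiles and 55.1% of all tested probe sets. These were 111 of 143 members outside the run (77.6%) and 22 of 37 in it (59.5%). The count of 30 was 16 when replicates 3 and 4 of OVA day 28 were both removed. It also fell without either saline day 14 array and without replicate 1 of saline day 28. Calls over all tested probe sets fell in the same fits, each of which leaves 1 array in a saline group. The split by direction moved with scaling, to 9 higher and 32 lower after quantile normalization and 17 and 19 after centring on the bright distinct profiles. It was 18 and 10 after centring on the members and 19 and 9 after centring on the run. Over all tested probe sets the split moved from 1398 and 317 to 1004 and 567 after quantile normalization. Calls there fell from 1715 to 1100 without replicates 3 and 4 of OVA day 28.

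**Figure D4:**
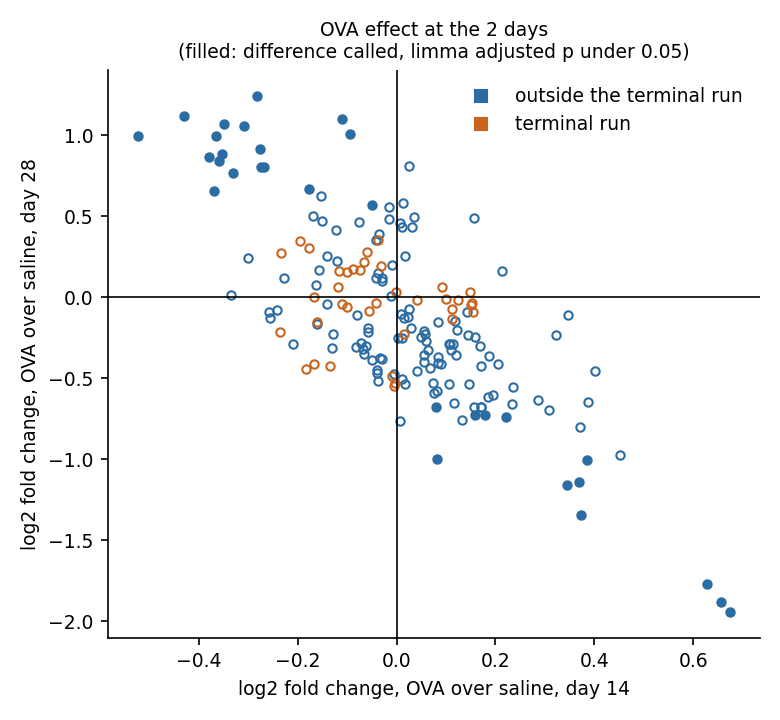
Log2 fold change of OVA over saline at day 14 (horizontal) and day 28 (vertical) for the 180 members; filled points are the 30 whose effect differed between days by limma's adjusted p. The filled points lie in the upper left and lower right, and the terminal run (orange) has none.

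In OVA spleens, limma called 16 members as rising and 13 as falling from day 14 to day 28, 16.1% in all. Outside the run 16 rose and 7 fell, and in the run 0 rose and 6 fell. The share was 9.07% of all tested probe sets (7.99% rising, 1.08% falling) and 26.3% of the bright distinct profiles (18.2% rising, 8.02% falling). The member of rank 113 rose most. It went from 8.38, 8.80, 8.68 and 9.08 to 9.31, 9.43, 10.05 and 9.97, which is 1.94-fold, or 0.96 ± 0.19 (SE) on the log2 scale, with a limma adjusted p of 0.0086. The rise at rank 147 was 1.85-fold, or 0.88 ± 0.18 (SE), with a limma adjusted p of 0.0092. For both, each array of OVA day 28 lay above each of OVA day 14. The 2 members that fell most were 20523392 (2.48-fold, log2 change -1.31 ± 0.27 SE) and 20506526 (2.30-fold, log2 change -1.20 ± 0.29 SE), at limma adjusted p-values of 0.0089 and 0.019. When replicates 3 and 4 of OVA day 28 were both removed, limma called 0 members and 0 of all tested probe sets. Of the members, 29 then reached an unadjusted p under 0.05. In that fit the changes were 0.64 for rank 113, 0.56 for rank 147, -0.81 for 20523392 and -0.63 for 20506526. The call of 20506526 was also lost without replicate 1 or 3 of OVA day 14 and without replicate 3 or 4 of OVA day 28, at limma adjusted p-values of 0.053 to 0.072. The count of members was 8 without replicate 3 of OVA day 28 alone and 9 without its replicate 4 alone. It was 15, 17 and 18 without OVA day 14 replicates 1, 2 and 3. Over all tested probe sets these fits called 899, 990, 1447, 1366 and 1255, against 1644 with all arrays. Here too the split followed the scaling. Quantile normalization called 4 members rising and 38 falling, and centring on the bright distinct profiles 7 and 25. Centring on the members called 12 and 13, and centring on the run 23 and 5. Over all tested probe sets the split was 1449 rising and 195 falling as deposited, and 729 and 428 after quantile normalization. The 3 centrings gave 1091 and 364, 1256 and 204, and 2345 and 104 there. The bright profiles and the run moved the median of all tested probe sets by -0.11 and 0.14 log2 units.

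Of the 13 members that fell in OVA, 6 belonged to the terminal run, and these were the 3 copies of step 3 and the 3 copies of step 5 of the repeated series. Their log2 changes were -0.55 to -0.43 (limma adjusted p = 0.0080 to 0.033). The copy of step 5 at rank 56 measured 10.93, 10.72, 10.69 and 10.82 in OVA day 14 and 10.31, 10.31, 10.15 and 10.20 in OVA day 28. Saline measured 10.74 and 10.84 at day 14 and 10.78 and 10.76 at day 28. All 4 OVA day 28 arrays were lower than the other 8. The 3 copies of step 2, which average below 8 and are not members, fell as well, by -0.57 to -0.45 log2 units (limma adjusted p = 0.0079 to 0.027). Steps 1 and 4 changed by -0.40 to -0.32 and by -0.30 to -0.24, step 6 by 0.097 to 0.12 and step 7 by -0.11 to -0.078, and none of their copies was called. Under scaling, all 6 copies of steps 3 and 5 were called after quantile normalization and after centring on the bright distinct profiles, 4 after centring on the members, and 1 after centring on the run itself, where the changes were -0.41 to -0.28.

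**Figure D5:**
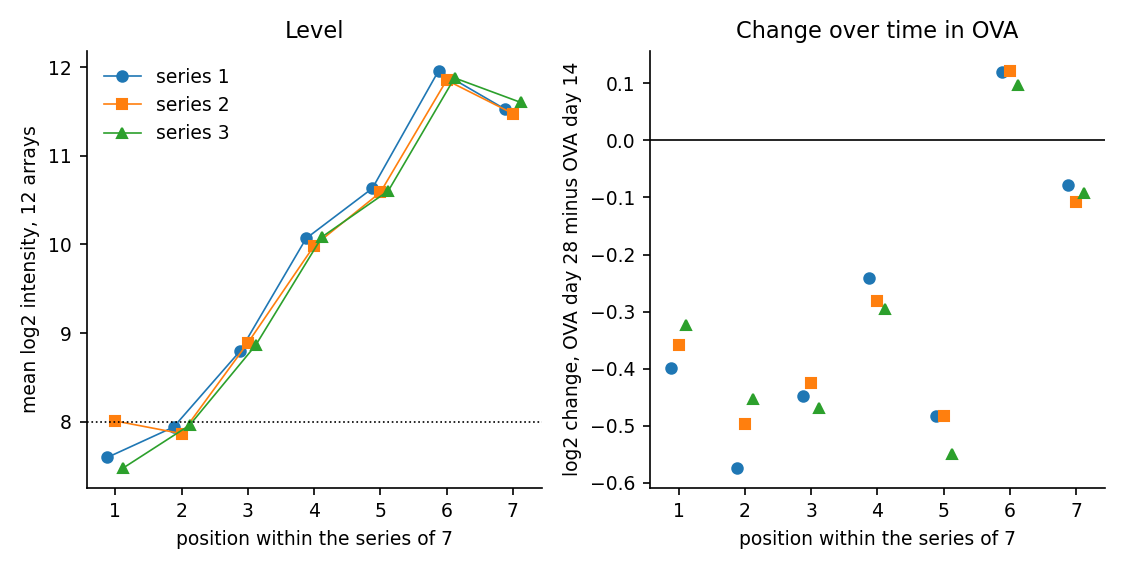
Left, mean log2 intensity over 12 arrays at the 7 positions of the 3 repeated series in the terminal run (dotted line, the minimum of 8). Right, log2 change from OVA day 14 to OVA day 28 at each position, where the 3 copies of a position lie close together and positions 2, 3 and 5 have changes of -0.57 to -0.43.

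In saline spleens, 6 members fell and 0 rose between the days by limma's adjusted p (3.33%). Of all tested probe sets 1.27% were called (0.199% rising, 1.07% falling), and of the bright distinct profiles 3.41% (0.2% rising, 3.21% falling). At an unadjusted p under 0.05 there were 19 members in each direction. That cut held 1164 rising and 1361 falling of the 18125 tested, and 146 and 166 of the 998 bright distinct profiles. All 6 called members lay outside the run. They were among the 25 members higher in OVA at day 28, a comparison that shares the saline day 28 arrays. The largest falls among them were those of 20504878 (log2 change -0.98 ± 0.19 SE) and 20523039 (log2 change -0.97 ± 0.20 SE), at limma adjusted p-values of 0.033 and 0.039. The largest positive changes, 1.40 ± 0.37 (SE) for rank 153 and 1.34 ± 0.41 (SE) for 20506526, had limma adjusted p-values of 0.094 and 0.14. The most negative estimate, -1.07 ± 0.32 (SE) at rank 50, was not called either (limma adjusted p = 0.13). Rises were called in 3 of the other settings, with 3 rising and 5 falling under the replicate block. An intensity trend with robust variances gave 3 and 8, and removal of replicates 3 and 4 of OVA day 28 gave 3 and 4. Rank 153 and 20506526 were among the risers in each of these (limma adjusted p = 0.022 to 0.043). The comparison rests on 2 arrays against 2. The members lost their calls when any 1 of these 4 arrays was left out, and calls over all tested probe sets fell in the same fits. Each of them leaves 1 array in a saline group, so the loss is not particular to the members. OVA arrays enter through the shared variance alone. Removing replicate 3 of OVA day 14 left 3 members called. Removing replicate 1, 3 or 4 of OVA day 28 left 3, 3 and 1. Over all tested probe sets these fits called 154, 165, 137 and 142 in that order, against 230 with all arrays.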

How the data were processed

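Processed intensities of 12 small RNA arrays, linear values from 0.627 to 24076, were deposited by the authors as 1 table. Per the labels' protocols, total RNA with its small fraction was extracted from frozen spleen and labelled with biotin (FlashTag). The sources used here do not give the summarisation, background correction, normalization or scan batches. Array medians were 1.03 to 1.09, and no 2 arrays were copies of each other. Values were converted to log2 without a pseudocount. Probe sets whose mean reached the median mean of the table (0.0498 on the log2 scale) were fitted with limma 3.58.1 in R 4.3.3 (lmFit, eBayes), with 1 mean per group over all 12 arrays. Tests were two-sided, with Benjamini-Hochberg adjustment over all 18125 and a threshold of 0.05. These hold 11771 distinct profiles, so the adjustment and the shares of all tested probe sets count some values more than once. The procedure was tried on simulated data with independent normal values. These held no copied profiles and no shifts of whole arrays, so the trial does not bear on either. Precision is limited by the number of arrays.

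Members and lists were chosen with earlier results of these data known. The lists of immune and cell type microRNAs need names and were not used. The rule for named members took the 4 brightest, the 2 on each side of the minimum, the 2 largest higher and lower differences of each comparison, both extremes of within-group SD and the most alike pair. It allowed more identifiers than the 4 printed. The terminal run was noticed after the values were seen.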

Additional observations from a re-analysis of the deposited data

Results flagged for a closer look

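The OVA effect differed between day 28 and day 14 in 30 of the 180 members (16.7%), by limma's test of the difference itself. That share lay between the 9.46% of all tested probe sets and the 26.8% of the bright distinct profiles, so it is not a result about the members. Among the members named for a large change, the difference was -2.62 log2 units for 20523392, -2.54 for 20506526 and -2.40 for rank 153. It was 1.55 for 20504878, 1.52 for 20523039, 1.52 for rank 50, 1.25 for rank 147 and 1.23 for rank 113. Naming members for a large change favours a large difference.

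Among 30 checks for 1 array far from the other 3 of an OVA group, 2 were positive, and chance gives about 1 in 20. Both concern very bright members of the terminal run with little spread. Rank 2 stood at 14.27 in OVA day 14 replicate 1 and at 14.37 to 14.39 on the other arrays of the group, a gap of 0.86 of the group's range. Rank 4 stood at 13.32 in OVA day 28 replicate 1 against 13.48 to 13.51, a gap of 0.85 of the range.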

How the results depend on the processing

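The table gives no detection values, and saline has 2 arrays per day, which limits what can be called. At day 14 no setting called a member. Leaving out 1 array gave 0 calls at day 14, 11 to 54 at day 28 (49 with all), 13 to 42 for the difference between days (30), 8 to 34 over time in OVA (29) and 0 to 7 over time in saline (6). Without OVA day 28 replicates 3 and 4 the counts were 12 at day 28, 16 for the difference and 0 over time in OVA. Over all tested probe sets they were 987, 1100 and 0. The replicate number as a block gave 26 at day 28, and 1684 of all tested probe sets against 2101 without it. At day 14 the block called 157 of all tested probe sets, against 10 without it. It called 0 members, with 28 at an unadjusted p under 0.05 against 5. Same-numbered arrays did not deviate together throughout (r of -0.31 to 0.50 over 14 pairs). Across days r was 0.46 and 0.50 for OVA replicates 1 and 4, and 0.10 and -0.092 for replicates 2 and 3. In a saline group of 2 the deviations mirror each other, so these values cannot show whether the numbers pair arrays. A fit to the compared groups alone gave 31 at day 28 and 0 in saline, where 36 had an unadjusted p under 0.05. Over all tested probe sets it called 1968 and 21. An intensity trend with robust variances gave 49 for the difference and 11 in saline, and 1914 and 415 over all tested probe sets. Testing each distinct profile once gave 34 at day 28 (20 higher and 14 lower), 20 for the difference, 16 in OVA over time and 1 in saline. Of the 11771 distinct profiles, 475, 328, 276 and 29 were then called. Centring on the members gave 2 in saline, and centring on the run, added after the data were seen, gave 3. Over all tested probe sets these centrings called 150 and 132 in saline. A mean of at least 9 left 119 members, and shared profiles raised the number to 284. The 20 differences of members named for a large change kept their direction in the settings run, and the 2 higher and 20523392 kept their day 28 calls in all 24. The cause of the other changes was not tested.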
